A study of Mus musculus with 4 samples.

Results

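The MHC class I antigen presentation genes were followed between GFP-positive and GFP-negative tumour cells. The set was given by name, with no threshold on a measured value but with earlier results of these data known: B2m, H2-D1, H2-K1, H2-T23, Tap1, Tap2, Tapbp, Erap1 and Nlrc5. All 9 were among the 17746 gene symbols of the deposited table, and all 9 passed the filter on low counts that left 16301 genes. Cells came from lung tumours of mice with floxed Rb1 and Trp53 (Rb1fl/fl; Trp53fl/fl), a model of small cell lung cancer, that also carried the knocked-in autophagy reporter GFP-LC3-RFP-LC3ΔG. Live cells positive for EpCAM and RFP were divided by GFP, which gave 2 GFP-positive and 2 GFP-negative libraries. Every library thus shares the floxed alleles and the reporter. The agent that delivered Cre, the strain, the age and sex of the mice and whether separate animals gave the libraries are not stated in the labels. The p-values therefore measure the spread between these libraries, which may be technical.

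Cells cut the reporter into GFP-LC3, a target of autophagic breakdown, and a stable RFP part. The sample titles call the GFP-positive libraries high in autophagic flux, whereas the design text gives high flux to the GFP-negative cells. No direction is therefore drawn for flux, the groups are named by GFP, and changes are given as GFP-negative minus GFP-positive levels.

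MHC class I molecules show peptides from inside the cell to CD8 T cells. The proteasome cuts proteins into peptides, the TAP transporter moves them into the endoplasmic reticulum, ERAP1 trims them, and tapasin helps load them onto a heavy chain paired with the light chain β2-microglobulin. NLRC5, interferon and NF-κB act on the promoters of these genes. Small cell lung cancer is known for low class I levels, and in pancreatic cancer cells autophagy is known to carry class I proteins to the lysosome through the receptor NBR1.

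The libraries held 51994432 to 73997175 counts. Depth was similar, yet GFP-positive replicate 1 had counts for 6063 symbols and the others for 15710 to 17617. Of the tested genes, 64.4% were at 0 counts in GFP-positive replicate 1. Levels below are CPM, counts scaled by TMM to a common library size, and pairs of values are replicate 1 and then replicate 2. Where no read was counted, a limit of 3 counts equals 0.0800 CPM in GFP-positive replicate 1, for counting error only. With TMM scaling the tested genes had a median log2 change of 0.91. It was 1.12 with DESeq2 size factors, 0.43 with upper quartile scaling, 1.33 with library totals, and -0.13 under TMM for the tested genes that every library detected.

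The light chain and the heavy chains had their higher levels in the GFP-positive libraries. The 9 genes together took 1.14% and 1.16% of the reads counted with GFP and 0.224% and 0.266% without GFP. For B2m, H2-D1, H2-K1, H2-T23, Tap1 and Tapbp the GFP-negative libraries were both below the GFP-positive pair, with group means 3.89-fold to 16.3-fold apart. These 6 are the members with counts in every library. The same order was found for 6.63% of all tested genes and for 18.4% of those with counts in all 4 libraries. The other members, Tap2, Erap1 and Nlrc5, had 0 counts in GFP-positive replicate 1 and overlapped between groups. In GENCODE M21, B2m, H2-T23, Tap1, Tap2, Tapbp, Erap1 and Nlrc5 overlap an annotated gene on the other strand, and the reads of such pairs cannot be told apart in unstranded libraries. Tapbp also overlaps Zbtb22 on its own strand. In bulk RNA, fewer cells of a type that makes these transcripts and less RNA per cell cannot be told apart.

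No member passed the test. The quasi-likelihood test of edgeR (adjusted by Benjamini-Hochberg) called 0 of the 9, against 0.0982% of all tested genes called in either direction and 0.092% called lower. At an unadjusted p under 0.05 edgeR had 2 of the 9, B2m and H2-D1, both lower, where 0.761% of all tested genes were lower at that level. DESeq2's Wald test and limma-voom also called 0. The fitted change was below 0 for 8 of 9 members with a median of -2.68, against 5199 of 16301 tested genes below 0. Of the tested genes with counts in all 4 libraries, 2928 of 5492 were below 0. Under the alternatives run, the median of the members stayed below 0, between -8.87 with upper quartile scaling and -1.59 with limma on log2(FPKM + 5).

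**Figure D1:**
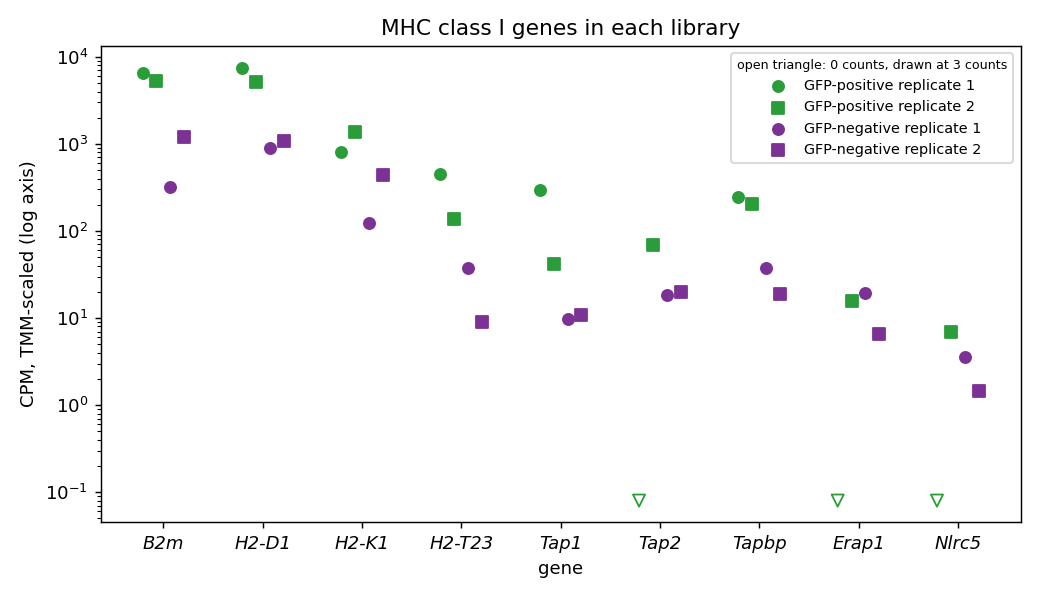
Level of each MHC class I gene (TMM-scaled CPM, log axis) in the 2 GFP-positive (green) and 2 GFP-negative (purple) libraries, circles for replicate 1 and squares for replicate 2; open triangles mark 0 counts and are drawn at the level of 3 counts. For 6 genes both purple points lie below both green points, and Tap2, Erap1 and Nlrc5 have 0 counts in GFP-positive replicate 1.

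B2m encodes β2-microglobulin, the light chain that every classical heavy chain needs to reach the cell surface. It lies on chromosome 2 (mm10) from 122147686 to 122153083. Its level was 6500 and 5354 CPM with GFP against 323 and 1191 CPM without GFP. The GFP-positive pair was close and the GFP-negative pair was spread, with replicate 1 the lowest of all. The means were 5927 ± 811 and 757 ± 614 CPM (SD, n = 2 per group), 7.83-fold apart. The log2 change was -2.97 ± 0.81 (SE, edgeR adjusted p = 0.194), and 20 of the 16301 tested genes had a smaller p. Without GFP-negative replicate 1 it was -2.32 (edgeR adjusted p = 0.0388) and without GFP-negative replicate 2 it was -4.14 (edgeR adjusted p = 2.02e-14). Without GFP-positive replicate 1 it was -2.83 with an SE of 2.78, and it did not pass.

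H2-D1 and H2-K1 are the classical heavy chains, which hold the peptide. Both lie on chromosome 17, H2-K1 from 33996017 to 34000347 on the minus strand and H2-D1 from 35262730 to 35267499 on the plus strand. H2-D1 stood at 7539 and 5138 CPM with GFP against 889 and 1093 CPM without GFP. Within each group the libraries were close, and the groups were far apart. Its means were 6339 ± 1698 and 991 ± 145 CPM (SD, n = 2 per group), 6.40-fold apart, with a log2 change of -2.68 ± 0.77 (SE, edgeR adjusted p = 0.38). It was called without GFP-negative replicate 1 (-2.54, edgeR adjusted p = 0.00601) and without GFP-negative replicate 2 (-2.77, edgeR adjusted p = 1.99e-08), and not without either GFP-positive library.

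H2-K1 was the less abundant heavy chain, at 809 and 1373 CPM with GFP against 125 and 436 CPM without GFP. The groups did not overlap, but the gap between the lowest GFP-positive and the highest GFP-negative library was the smallest of the 3 chains named so far. Its log2 change was -1.96 ± 1.39 (SE, edgeR adjusted p = 1.0), and with 1 library left out it lay between -3.10 (without GFP-negative replicate 2) and -1.33 (without GFP-negative replicate 1). H2-K1 and H2-D1 are close paralogues, so reads may be split between them in either direction. Their sum, which such a split leaves as it is, was 8348 and 6511 CPM with GFP against 1013 and 1529 CPM without GFP. H2-D1 made up 90.3% and 78.9% of this sum in GFP-positive and 87.7% and 71.5% in GFP-negative libraries. This share overlapped between the groups. The strain is not given, and reads from an MHC haplotype other than that of the reference genome may align less well to these genes.

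The promoters of the 3 chains are shown because the chains were high in the same libraries. The sequences are from RefSeq (GRCm38.p6), 5′ to 3′ in the direction of the gene. Capitals mark matches to GGGNNTTCC (NF-κB type), GAAANNGAA or GAANNGAAA (core of the interferon-stimulated response element), TGACG (part of a cAMP response element) and CCAAT. Each was matched on either strand. GAANNGAAA was added after the sequences were seen.
H2-K1, minus strand, chr17:34000354-34000463: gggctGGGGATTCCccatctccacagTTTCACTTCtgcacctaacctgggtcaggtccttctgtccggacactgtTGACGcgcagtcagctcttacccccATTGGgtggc
B2m, plus strand, chr2:122147543-122147643: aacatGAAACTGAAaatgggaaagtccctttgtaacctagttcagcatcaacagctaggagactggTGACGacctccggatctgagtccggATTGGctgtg
H2-D1, plus strand, chr17:35262923-35262952: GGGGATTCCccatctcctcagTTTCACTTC

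The H2-D1 line holds 30 bases before the RefSeq start, which a longer GENCODE transcript of H2-D1 includes in its first exon. It was identical to H2-K1 at 29 of 30 bases. In both heavy chain promoters TGACG began 70 bases after the start of the NF-κB type match, and ATTGG, the reverse complement of CCAAT, began 25 bases after TGACG. Over these 100 bases 89 were identical. B2m had an interferon-type match, TGACG and ATTGG in the same order. Among 32851 RefSeq promoter windows of the same length, GGGNNTTCC was in 5.82%, GAAANNGAA in 8.56%, GAANNGAAA in 7.52%, TGACG in 20.8% and CCAAT in 37.4%. Of the 7 members with a promoter entry, GGGNNTTCC was in 2, GAAANNGAA in 3, GAANNGAAA in 2, TGACG in 4 and CCAAT in 6. A match is a description of letters and shows no binding.

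H2-T23 encodes Qa-1, a class Ib heavy chain known for presenting leader peptides of other class I chains to NK cell receptors. It lies on chromosome 17 from 36029773 to 36032855. Its level was 449 and 138 CPM with GFP against 37.9 and 9.09 CPM without GFP. In each group replicate 1 was the higher one, and the groups did not overlap. The log2 change was -3.64 ± 2.46 (SE, n = 2 per group, edgeR adjusted p = 1.0). Without GFP-positive replicate 2 it was -4.26, in a fit with 1 GFP-positive library. It was called in no fit that kept all 4 libraries.

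Tap1 and Tap2 encode the subunits of the peptide transporter, and Tapbp encodes tapasin, which bridges the transporter and the heavy chain. All lie within the MHC on chromosome 17, Tap1 from 34187553 to 34197225, Tap2 from 34203527 to 34216321 and Tapbp from 33915899 to 33929292. Tap1 stood at 298 and 41.4 CPM with GFP against 9.87 and 10.98 CPM without GFP. The GFP-negative pair was close, and GFP-positive replicate 1 stood far above the rest. Its log2 change was -4.02 ± 3.08 (SE, edgeR adjusted p = 1.0). Leaving out GFP-positive replicate 1 gave -1.99. Leaving out GFP-positive replicate 2, the other GFP-positive library, gave -4.84.

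Tap2 had 0 counts in GFP-positive replicate 1, against 69.2 CPM in replicate 2 and 18.5 and 20.2 CPM without GFP. The GFP-positive libraries thus held both the lowest and the highest value. Its log2 change was -0.84 ± 4.08 (SE, edgeR adjusted p = 1.0), with an SE far larger than the change. It was -1.85 without GFP-positive replicate 1 and 13.45 without GFP-positive replicate 2, where the only GFP-positive library left was at 0. GFP-positive replicate 1 had the highest Tap1 and no count for Tap2, as it had none for 64.4% of all tested genes. In the other libraries Tap1 counts were 0.598 of Tap2 counts in GFP-positive replicate 2 and 0.535 and 0.544 in the GFP-negative libraries.

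Tapbp was at 243 and 207 CPM with GFP against 37.7 and 18.9 CPM without GFP. The GFP-positive pair was close and the groups lay well apart. The means were 225 ± 25.5 and 28.3 ± 13.3 CPM (SD, n = 2 per group), 7.93-fold apart, and the log2 change was -2.99 ± 2.61 (SE, edgeR adjusted p = 1.0). It stayed between -3.57 and -2.52 with each library left out in turn, and was called in none of those fits.

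Erap1, on chromosome 13 from 74639568 to 74693201, encodes the aminopeptidase that trims peptides in the endoplasmic reticulum. It was at 0 and 15.6 CPM with GFP against 19.5 and 6.56 CPM without GFP. GFP-negative replicate 1 was the highest, and the groups overlapped. Erap1 was the member with a fitted change above 0 (0.74 ± 4.44, SE, edgeR adjusted p = 1.0). It was -0.27 without GFP-positive replicate 1 and 12.89 without GFP-positive replicate 2, where the GFP-positive group was at 0 counts.

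Nlrc5, on chromosome 8 from 94434356 to 94527272, encodes the transactivator of class I genes. It was the least abundant member, at 0 and 6.82 CPM with GFP against 3.55 and 1.46 CPM without GFP. The highest value was in GFP-positive replicate 2. The log2 change was -0.45 ± 4.29 (SE, edgeR adjusted p = 1.0), -1.45 without GFP-positive replicate 1 and 10.51 without GFP-positive replicate 2. GFP-positive replicate 1 had the highest H2-D1 and B2m and no count for Nlrc5, as it had none for 64.4% of all tested genes.

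**Figure D2:**
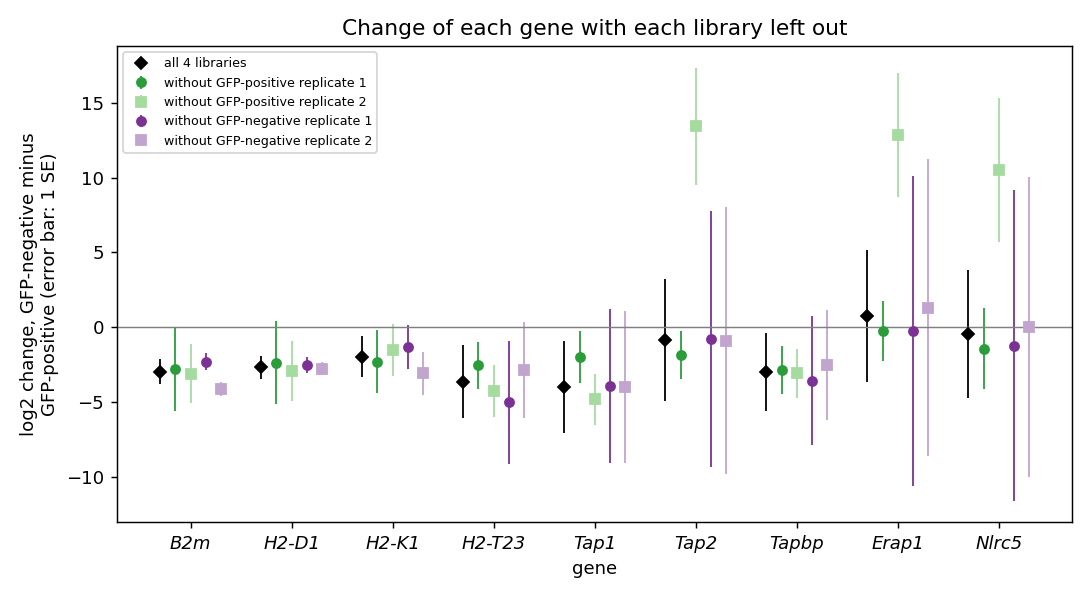
Log2 change (GFP-negative minus GFP-positive, edgeR, error bars 1 SE) of each gene with all 4 libraries (black) and with 1 library left out (green: a GFP-positive library, purple: a GFP-negative library). B2m, H2-D1, H2-K1, H2-T23, Tap1 and Tapbp stay below 0 in every fit, while Tap2, Erap1 and Nlrc5 reach 13.45, 12.89 and 10.51 without GFP-positive replicate 2.

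**Figure D3:**
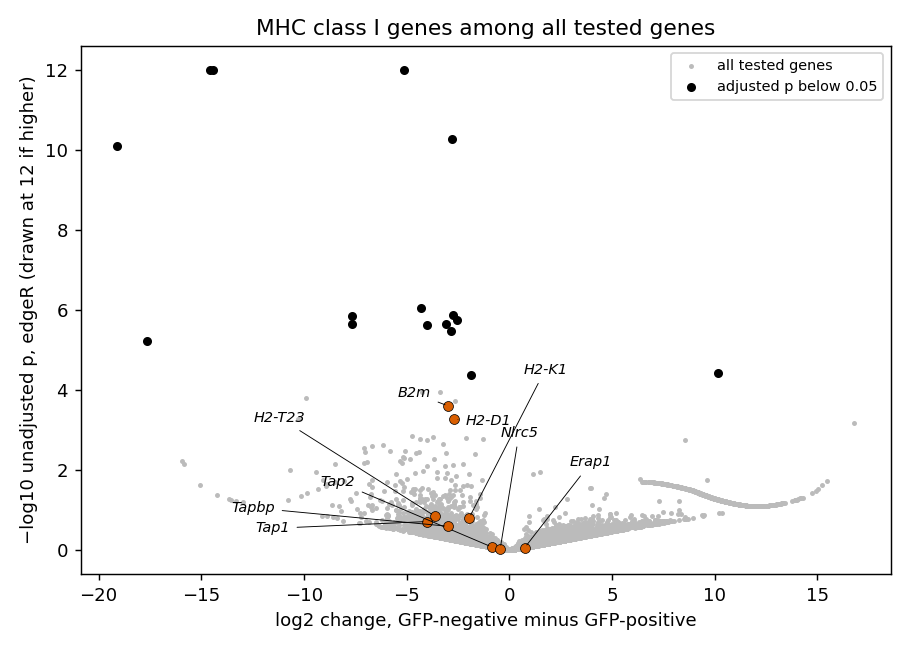
Log2 change against -log10 of the unadjusted edgeR p for the 16301 tested genes (grey), genes with an adjusted p below 0.05 (black) and the 9 MHC class I genes (orange). B2m and H2-D1 lie just under the called genes, and the other 7 lie among the bulk of the tested genes.

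Per gene length, the 3 chains kept their order in every library. On the FPKM scale B2m was the highest member throughout, at 4882 and 5047 FPKM in GFP-positive and 507 and 1151 FPKM in GFP-negative libraries. By FPKM it ranked 12 and 13 of all genes in the GFP-positive and 63 and 55 in the GFP-negative libraries. H2-D1 followed at 1888 and 1615 FPKM against 466 and 352 FPKM, ranks 24 and 37 against 77 and 233. In GFP-negative replicate 1 the FPKM of B2m and H2-D1 were near each other. H2-K1 had 178 and 379 FPKM in GFP-positive and 57.3 and 123 FPKM in GFP-negative libraries and was next in each. The remaining 6 members stayed at or under 100.4 FPKM, and Nlrc5 at or under 0.650 FPKM.

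Ratios within a library do not depend on how libraries are scaled. H2-D1 had 1.16 and 0.960 counts per B2m count in GFP-positive and 2.75 and 0.918 in GFP-negative libraries, so that GFP-negative replicate 1 stood apart and the other 3 were close. The log2 difference in this ratio was 0.59 (exact two-sided permutation p = 1.0, where 2 libraries against 2 cannot go below 0.333). H2-K1 had 0.124 and 0.256 counts per B2m count in GFP-positive and 0.386 and 0.366 in GFP-negative libraries, a log2 difference of 1.07 (exact permutation p = 0.333). The groups did not overlap in this ratio: H2-K1 was higher relative to B2m in both GFP-negative libraries, while both genes were lower in CPM. Tapbp had 0.0373 and 0.0386 counts per B2m count in GFP-positive and 0.117 and 0.0159 in GFP-negative libraries, with a log2 difference of 0.18 (exact permutation p = 1.0). The sum of H2-D1 and H2-K1 relative to B2m, in FPKM, was 0.423 and 0.395 in GFP-positive and 1.03 and 0.413 in GFP-negative libraries.

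The sorting marker Epcam gave another measure within the library. B2m counts were 69.2 and 81.3 times those of Epcam in GFP-positive and 1.26 and 13.4 times in GFP-negative libraries, a log2 difference of -4.19 (exact permutation p = 0.333, the smallest possible). For H2-D1 the ratios to Epcam were 80.2 and 78.0 against 3.48 and 12.3, and for H2-K1 8.61 and 20.8 against 0.488 and 4.90. Relative to Epcam, the 3 chains thus lay lower in both GFP-negative libraries, and lowest in replicate 1.

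Markers of macrophage and myeloid cells were lower in sum in both GFP-negative libraries, as the chains were. Of 19 such markers 18 were in the table and tested, all 18 had a fitted change below 0, and 3 were called lower (Chil3, Lyz2 and Ctss). Of all tested genes, 5199 of 16301 were below 0 and 0.092% were called lower. Of those with counts in all 4 libraries, 2928 of 5492 were below 0. These shares are also the background for the other marker lists. Their summed level was 69400 to 121100 CPM in the GFP-positive and 1275 to 22300 CPM in the GFP-negative libraries. Ptprc, the CD45 gene that marks white blood cells, was at 0 counts in GFP-positive replicate 1, as were Itgax and Siglecf. The other 15 of the list had counts there, while 64.4% of all tested genes had none. Among the 15, Mrc1 had 4 counts. Ptprc, Mrc1, Itgax, Fcer1g and Siglecf overlapped between the groups. Lyz2 and Chil3 stood at 43150 and 42910 CPM in GFP-positive replicate 1, so the sum rests mostly on these genes there. The sum of the list was highest in that library, as were B2m and H2-D1. B2m stood at 5.37 and 7.71 CPM per 100 CPM of these markers in GFP-positive and at 25.3 and 5.34 in GFP-negative libraries. H2-D1 stood at 6.23 and 7.40 against 69.7 and 4.90. H2-K1 stood at 0.668 and 1.98 against 9.78 and 1.95, with GFP-positive replicate 1 below the rest. All 3 chains were highest relative to the markers in GFP-negative replicate 1, where the markers were lowest. B2m had 0.520 and 0.599 counts per count of the protease gene Ctss in GFP-positive and 1.66 and 0.517 in GFP-negative libraries. The part of such cells in the class I differences was not tested.

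Other cell types were read in the same way. T and NK markers summed to 429 and 169 CPM with GFP against 20.8 and 63.6 CPM without GFP, with 7 of the 8 in the table at 0 counts in GFP-positive replicate 1. Neutrophil markers summed to 194 and 145 against 29.1 and 31.6 CPM, lower in both GFP-negative libraries as the chains were, with 3 of the 4 in the table at 0 counts in GFP-positive replicate 1. B and plasma cell markers summed to 0.213 and 1364 against 908 and 2034 CPM, and alveolar type 2 markers to 147 and 195 against 86.5 and 2395 CPM. Endothelial markers summed to 396 and 1.10 against 91.7 and 15.8 CPM, but the 3 in the table differed in direction. Pecam1 was at 396 and 1.10 against 2.78 and 2.27 CPM. Kdr and Vwf had 0 counts in both GFP-positive libraries. Without GFP they stood at 2.05 and 3.06 CPM and at 86.9 and 10.5 CPM. Fibroblast markers summed to 0.160 and 76.6 against 24.2 and 66.3 CPM. None of the markers of the cell types named so far in this paragraph were called. The 4 dendritic cell markers in the table were all at 0 counts in GFP-positive replicate 1. They summed to 72.9 CPM in GFP-positive replicate 2 and to 26.1 and 66.4 CPM without GFP. Hepatocyte markers summed to 27260 CPM in GFP-positive replicate 1 and 23.5 to 319 CPM elsewhere, and 3 of the 4 in the table were called lower (Alb, Apoa2 and Cyp2e1). Erythroid markers summed to 45370 and 14330 against 1572 and 5389 CPM, and Hbb-bs and Hba-a1 were the 2 of 5 called lower. Epithelial markers had sums of 1141 and 389 against 2662 and 730 CPM, and neuroendocrine markers of 3594 and 1270 against 5542 and 1741 CPM. None of the 5 epithelial and none of the 10 neuroendocrine markers were called, and all 5 epithelial markers had counts in every library. The part of these cells in the class I differences was not tested.

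**Figure D4:**
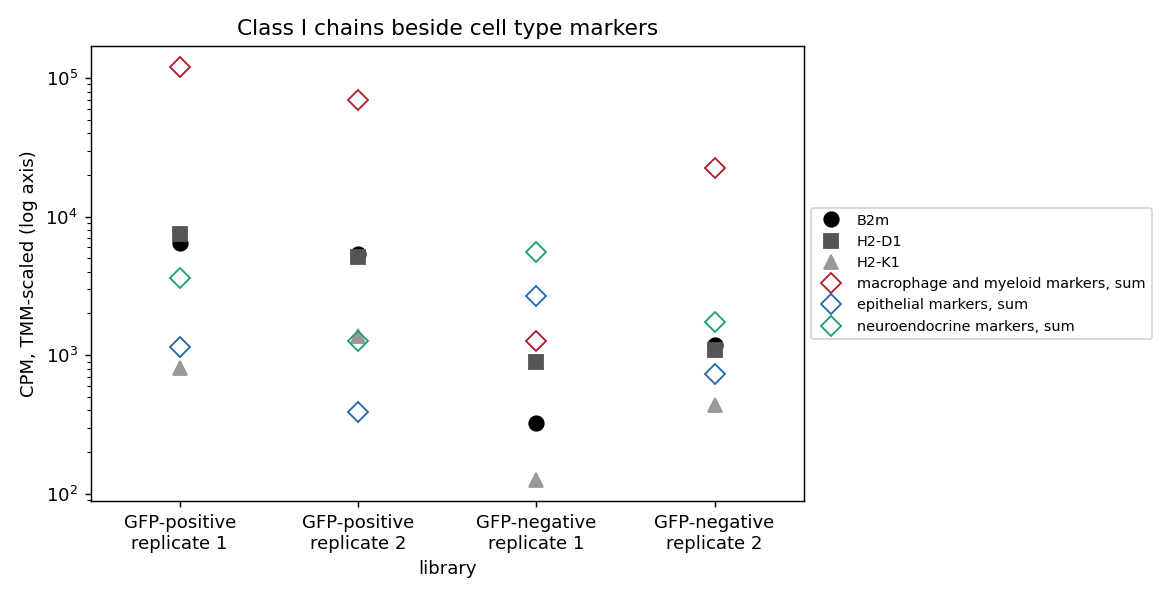
Levels of B2m, H2-D1 and H2-K1 (filled) beside the summed levels of macrophage and myeloid, epithelial and neuroendocrine markers (open diamonds) in each library (TMM-scaled CPM, log axis). The macrophage sum is 121100 and 69400 CPM with GFP and 1275 and 22300 CPM without GFP, and GFP-negative replicate 1 is the library where it lies below the epithelial and neuroendocrine sums.

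The wider pathway was read from a list of 48 genes, of which 45 were in the table and tested. edgeR called 0 of the 45 in either direction and had 1 lower and 0 higher at an unadjusted p under 0.05, and DESeq2's Wald test and limma-voom also called 0. Of these, 30 had a fitted change below 0, and the median was -0.91, which was above 0 in some fits, at 1.19 with limma-voom and 0.82 with limma on log2(FPKM + 0.1). Of the 45, 17 were at 0 counts in GFP-positive replicate 1. Without overlap between groups, 13 of the 45 (28.9%) were lower and 6 were higher without GFP, against 1080 (6.63%) lower and 4101 higher of the 16301 tested genes. Among the 5492 tested genes with counts in all 4 libraries, as 28 of the 45 had, 1009 (18.4%) were lower and 723 higher.

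Other class I-like chains had the lowest median change among the groups of the list. Of 14 tested, 12 had a fitted change below 0, with a median of -2.56, and 8 were at 0 counts in GFP-positive replicate 1. H2-Q10, a soluble class I chain of liver cells, reached 1181 CPM in GFP-positive replicate 1. The other libraries held far less, namely 3.50 CPM in the remaining GFP-positive library and 1.04 and 0.180 CPM without GFP. It had the smallest p of the list (log2 change -9.92 ± 2.62, SE, edgeR adjusted p = 0.135), and its high value is in the library that also holds the high hepatocyte markers. Hfe, which binds β2-microglobulin and controls iron uptake, stood at 307 and 172 against 2.71 and 71.1 CPM. H2-T22, a ligand of γδ T cells, stood at 318 and 45.4 against 17.5 and 32.1 CPM. The H2-Q and H2-T genes are close copies, so the division of reads among them is uncertain.

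None of the folding genes passed the test. Of 7 genes for folding and editing in the endoplasmic reticulum, 4 had a fitted change below 0 (median -0.37). Pdia3, a disulphide isomerase of the loading complex, was at 1838 and 677 against 664 and 361 CPM (log2 change -1.30 ± 1.23, SE, edgeR adjusted p = 1.0). Calr, the chaperone calreticulin, was at 795 and 402 against 348 and 103 CPM. Hspa5, the chaperone BiP, was at 2963 and 1045 against 1556 and 643 CPM, with overlapping groups.

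All 5 genes of the immunoproteasome and its activator had a fitted change below 0, with a median of -0.35. Without overlap, 6.63% of all tested genes were lower without GFP, and 18.4% of those with counts in all 4 libraries. Here 1 of the 5 (20%) was lower in that way. Psmb9, a catalytic subunit whose gene overlaps the start of Tap1 on the other strand, was that gene, at 103 and 87.3 against 6.52 and 27.2 CPM (log2 change -2.49 ± 3.49, SE, edgeR adjusted p = 1.0). Psmb8, a catalytic subunit, was at 306 and 485 against 32.3 and 376 CPM, and Psme2, of the proteasome activator, at 264 and 220 against 73.9 and 307 CPM. For both the groups overlapped.

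Of 14 regulators, 7 had a fitted change below 0 and 7 above, with a median of -0.32. Rela, an NF-κB subunit, was at 492 and 74.7 against 38.2 and 13.9 CPM (log2 change -3.44 ± 2.46, SE, edgeR adjusted p = 1.0). Ifngr2, a chain of the interferon-γ receptor, was at 266 and 70.6 against 15.8 and 25.8 CPM. Irf1, an interferon-responsive activator of class I genes, was at 298 and 54.0 against 41.5 and 21.0 CPM. In these 3 genes, the regulators with the smallest p, the groups did not overlap and GFP-positive replicate 1 was the highest library. They were the 3 of the 14 (21.4%) that were lower without overlap. That share was 6.63% for all tested genes and 18.4% for those with counts in all 4 libraries. In the other direction without overlap were 2 of the 14, against 4101 of all 16301 tested genes. These were Ezh2 and Eed, subunits of the Polycomb complex PRC2, at 0.107 and 13.4 against 49.6 and 46.7 CPM and at 0 and 55.6 against 70.8 and 86.2 CPM. Ezh2 had 4 counts in GFP-positive replicate 1, where 64.4% of all tested genes had 0. Of the 5 genes tied to routing of class I to the lysosome, Sqstm1, the cargo receptor p62, was at 1514 and 932 against 384 and 292 CPM, with no overlap. Nbr1, the cargo receptor named above, was at 0.107 and 17.3 against 97.2 and 4.06 CPM, with overlapping groups (log2 change 2.54 ± 4.22, SE, edgeR adjusted p = 1.0). Tollip was at 0.107 and 14.4 against 132 and 16.6 CPM, with a log2 change of 3.36 ± 4.03 (SE, edgeR adjusted p = 1.0). Irgq had 0 counts in both GFP-positive libraries and 5.33 and 2.24 CPM without GFP.

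Genes with the nearest profiles were sought among 1795 genes with at least 10 counts in every library and a mean of 100 CPM or more, by the root mean square distance between centred log2 CPM over the 4 libraries. Among the nearest to B2m were Apobec1, an RNA-editing enzyme (0.21), and Sat1, an enzyme of polyamine breakdown (0.21). Nearest to H2-D1 were the transcription factors Nfil3 (0.15) and Nfe2l2 (0.26) and the kinase gene Plk3 (0.27). Nearest to H2-K1 were Shisa5 (0.12), Slc3a2 (0.27), a subunit of amino acid transporters, and Ninj1 (0.31). Shisa5 had 447 and 609 against 61.6 and 204 CPM. With 4 libraries many genes can lie this near, and the distances are a description.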

How the data were processed

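Cells were sorted from lung tumours and sequenced in 2 libraries with GFP and 2 without. cDNA, per the labels' protocols, was primed with oligo(dT), extended by template switching and amplified by PCR, in a kit whose description does not mark the strand. The authors deposited whole-number counts and FPKM values, which relate fragments to gene length and library size, for 17746 gene symbols, as the file headers say. The build mm10 and the tools cutadapt 1.9, HISAT2 2.2.1, StringTie 2.1.6, DESeq2 and edgeR are named by the submitters' processing notes. The handling of reads shared between genes is not given in the sources used here.

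Counts were tested in R 4.3.3 with edgeR 4.0.16 (filterByExpr with a minimum count of 10, TMM scaling, the group as the only term, glmQLFit and glmQLFTest) and Benjamini-Hochberg adjustment over all 16301 tested genes at a threshold of 0.05. CPM are counts relative to the TMM-scaled library. Each SE was taken from the log2 change and its F statistic (size of the change over root F). Alternatives used DESeq2 1.42.0, limma 3.58.1, other scalings and filters, the replicate number as a block, and each library left out. The scripts were tested on simulated counts.

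The 9 genes, the pathway list and the markers were chosen with earlier results of these data known. Named beside the 9 genes were, from each group of the pathway list, up to 3 genes with the smallest p among those with 10 or more counts in every library, and, for 3 members, the 3 genes with the nearest profile, of which 1 is not reported here. The called markers and the markers at 0 counts in GFP-positive replicate 1 were named after their values were seen. So were Pecam1, Mrc1, Fcer1g, Nbr1, Tollip, Irgq, Ezh2, Eed and the genes under the other observations. Positions came from GENCODE M21 and promoter sequences from RefSeq on GRCm38.p6, which is the mm10 build; 7 of the 9 genes had a promoter entry. Reads of the reporter were not analysed here.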

Additional observations from a re-analysis of the deposited data

How the results depend on the processing

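The 6 members with counts in every library kept a change below 0 in all 16 alternatives run for each. The count of members called was 0 and became 2 with the replicate block, 2 and 1 with limma on log2(FPKM + 0.1) and log2(FPKM + 1), and 0 to 4 with 1 library left out. The replicate numbers pair nothing in the labels (correlation of deviations 0.008), and with the block B2m and H2-D1 passed (-3.25 and -2.66). Over all tested genes the 16 calls became 0 among genes with counts in all 4 libraries and 0 with upper quartile scaling, 63 with DESeq2's Wald test, 4 with limma-voom, 42 with limma on log2(FPKM + 0.1), and 1 to 7601 with 1 library left out. The extremes were without GFP-positive replicate 1 and 2, in that order. For the wider list 0 to 20 were called with 1 library left out, the 20 without GFP-positive replicate 2. Changes of sign were found in the members at 0 counts in GFP-positive replicate 1. For Tap2 and Nlrc5 they were 4.68 and 3.48 with the block, 4.73 and 3.25 with limma-voom, 2.17 and 0.55 with limma on log2(FPKM + 0.1), 0.69 and 0.056 on log2(FPKM + 1), and 0.071 and 0.009 on log2(FPKM + 5). Nlrc5 was at 0.087 with library totals. With 1 library left out, Tap2 ranged from -1.85 to 13.45, Erap1 from -0.27 to 12.89 and Nlrc5 from -1.45 to 10.51. The cause of these shifts was not tested. With 1 library left in a group its spread is assumed to be that of the other group. B2m, H2-D1 and H2-K1 had 14145 or more counts in each library, so the spread between 2 libraries limits them more than depth.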

Other observations

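Some class I-like chains were found in every library but GFP-positive replicate 1, where 64.4% of all tested genes were at 0 counts. Of the 14 class I-like chains tested, 8 were at 0 counts there, so this is no trait of these chains. H2-Q6 and H2-Q7, Qa-2 chains that are near copies of each other, stood at 0 and 153 and at 0 and 157 CPM in GFP-positive libraries. In the GFP-negative libraries they stood at 15.2 and 66.3 and at 7.96 and 65.1 CPM. Fcgrt, the neonatal Fc receptor, which pairs with β2-microglobulin and recycles antibody, was at 0 and 552 against 11.4 and 257 CPM. H2-M3, which presents formylated peptides, was at 0 and 94.9 against 11.2 and 56.7 CPM. In these 4 genes GFP-positive replicate 2 was the highest library and GFP-negative replicate 1 the lowest of the other 3. Cd1d1, which presents lipids to NKT cells, was at 0 and 41.6 CPM with GFP against 70.8 and 63.8 CPM without GFP, so that its order was the opposite. None of the 5 were called by edgeR (adjusted p = 1.0 for each).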
